A study of Mus musculus with 4 samples.

Results

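The genes described here are mouse small nuclear RNA (snRNA) genes other than U1 that were counted in Lewis lung carcinoma tumours and in exosomes released from them. They were chosen as genes with the snRNA biotype in the GENCODE M21 annotation of the assembly GRCm38, an annotated length under 160 or over 168 bases, which steps around the length of U1, and at least 10 counts summed over the 4 libraries. This gave 87 of the 47069 genes in the table, out of 1385 annotated snRNA genes, of which 1285 had such a length. The members were thus chosen by measured values, their summed counts, so their being countable is not a result. The 13 members at exactly 10 counts held 9 counts in exosomes and 121 in tumour between them, and the 15 genes left out at 9 counts held 7 and 128. A further 1055 genes of these lengths had no count at all.

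The label was checked by aligning every member to a named RNA of each type. By best match, 18 members were U2 (13 of full length, 4 partial copies, and RF00004, which has no sequence in the annotation used and was placed by its symbol), 4 were U12, 3 were U4, 6 were U5, 48 were U6, 1 was U6atac and 1 was U7. The remaining 6 members matched U1 best and are shortened or diverged U1 copies that the length rule let in, so the rule did not remove U1 fully. They are described apart, and the sums are given with and without them. No member was of the U11 type, and Rnu11 had 0 counts in every library. RefSeq lists 73 of the members as snRNA and 10 as pseudogenes, and 4 were not matched.

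The tumours grew from Lewis lung carcinoma, an established mouse lung carcinoma line, inoculated under the skin of C57BL/6 mice, and were taken after 3 weeks. Both groups carry this tumour and strain, and the labels name no other treatment or allele. The 2 exosome libraries were made from medium in which pieces of primary tumour had been kept without serum for 12 h, cleared by centrifugation and passed through a 0.2 µm filter, with a precipitation reagent in place of ultracentrifugation before RNA was extracted. The 2 tumour libraries were made from the primary tumour itself. The tumour pieces hold host cells as well as carcinoma cells, so the cells that released the exosomes are not known, and a precipitation reagent can also carry down RNA outside vesicles. The replicates are labelled only as replicates, so p-values measure the spread between these libraries, which may be technical. The question of the study was how gene expression signatures differ between these groups.

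The spliceosome removes introns with RNA and protein particles built around snRNAs. U1 and U2 recognise the start of the intron and its branch point, U4 and U6 arrive base-paired to each other together with U5, and U4 leaves before U6 and U2 form the catalytic centre while U5 holds the exon ends. U12 takes the place of U2 in the minor spliceosome, which cuts a rare class of introns. Most of these RNAs are bound by a ring of Sm proteins during their assembly in the cytoplasm, whereas U6 carries LSm proteins and keeps to the nucleus, and mature particles are concentrated in the nucleus.

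The 5 main types behaved differently between exosomes and tumour. U2 was the bulk of the members' counts in exosomes, and U5 was the bulk in tumour. The 87 members held 65852 counts (21.5% of all gene counts) in exosome replicate 1 and 38063 (17.5%) in replicate 2, against 67157 (0.462%) and 46406 (0.428%) in the tumour replicates. The mean share was 19.5% ± 2.84 (SD, n = 2) in exosomes and 0.445% ± 0.0241 (SD, n = 2) in tumour, 43.9 times apart, and the groups did not overlap. Without the 6 U1-like members the shares were 17.8% ± 3.04 and 0.443% ± 0.0235 (SD, n = 2 each). An exact two-sided permutation test of 2 libraries against 2 cannot go below p = 0.333, so shares are given without a test. In bulk libraries, fewer cells of a type and less RNA per cell cannot be told apart, and neither can a higher share of an RNA and less of the other RNAs.

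The libraries differed in depth and in scale. The exosome libraries held 305751 and 217201 counts and the tumour libraries 14543691 and 10849811, so that 1 count is worth 3.27 or 4.60 CPM (counts scaled to library size) in exosomes and 0.0688 or 0.0922 CPM in tumour. Differences below are log2 values, exosomes minus tumour, from edgeR's quasi-likelihood test with TMM scaling, which sets the trimmed bulk of genes to no difference. The median of all 1442 genes tested was 0.02 with TMM scaling and 2.75 when libraries were scaled to their totals, so a TMM difference is a difference relative to the other genes, and modest negative differences become positive under library totals. Copies of an RNA are near-identical and reads that fit several copies cannot be assigned to 1 of them, so single-copy values are uncertain and sums over copies are given beside them. Markers of the cell types a tumour holds had few counts in exosomes. Shares of the library, summed over each list, were higher in both exosome libraries for erythroid, fibroblast, neutrophil, macrophage, endothelial, and epithelial and carcinoma genes. The median gene was also higher in exosomes under library totals, by 2.75, so these shares are not differences relative to other genes. The 4 erythroid genes came to 268 and 470 CPM (82 and 102 counts) in exosomes against 113 and 80.5 CPM in tumour. The 4 fibroblast genes came to 75.2 and 101 CPM (23 and 22 counts) against 8.66 and 6.54 CPM. The 4 neutrophil genes came to 49.1 and 50.6 CPM (15 and 11 counts) against 3.71 and 0.922 CPM. The 5 macrophage genes came to 6.54 and 36.8 CPM (2 and 8 counts) against 4.95 and 3.50 CPM. The 3 endothelial genes came to 9.81 and 18.4 CPM (3 and 4 counts) against 0.963 and 0.737 CPM. The 5 epithelial and carcinoma genes came to 3.27 and 4.60 CPM (1 and 1 counts) against 0.894 and 0.369 CPM. The 4 T and natural killer genes had 1 and 0 counts in exosomes. The 2 platelet genes had none in either exosome library and 1 and 2 counts in tumour. The part of these cells in the results was not tested.

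**Figure D1:**
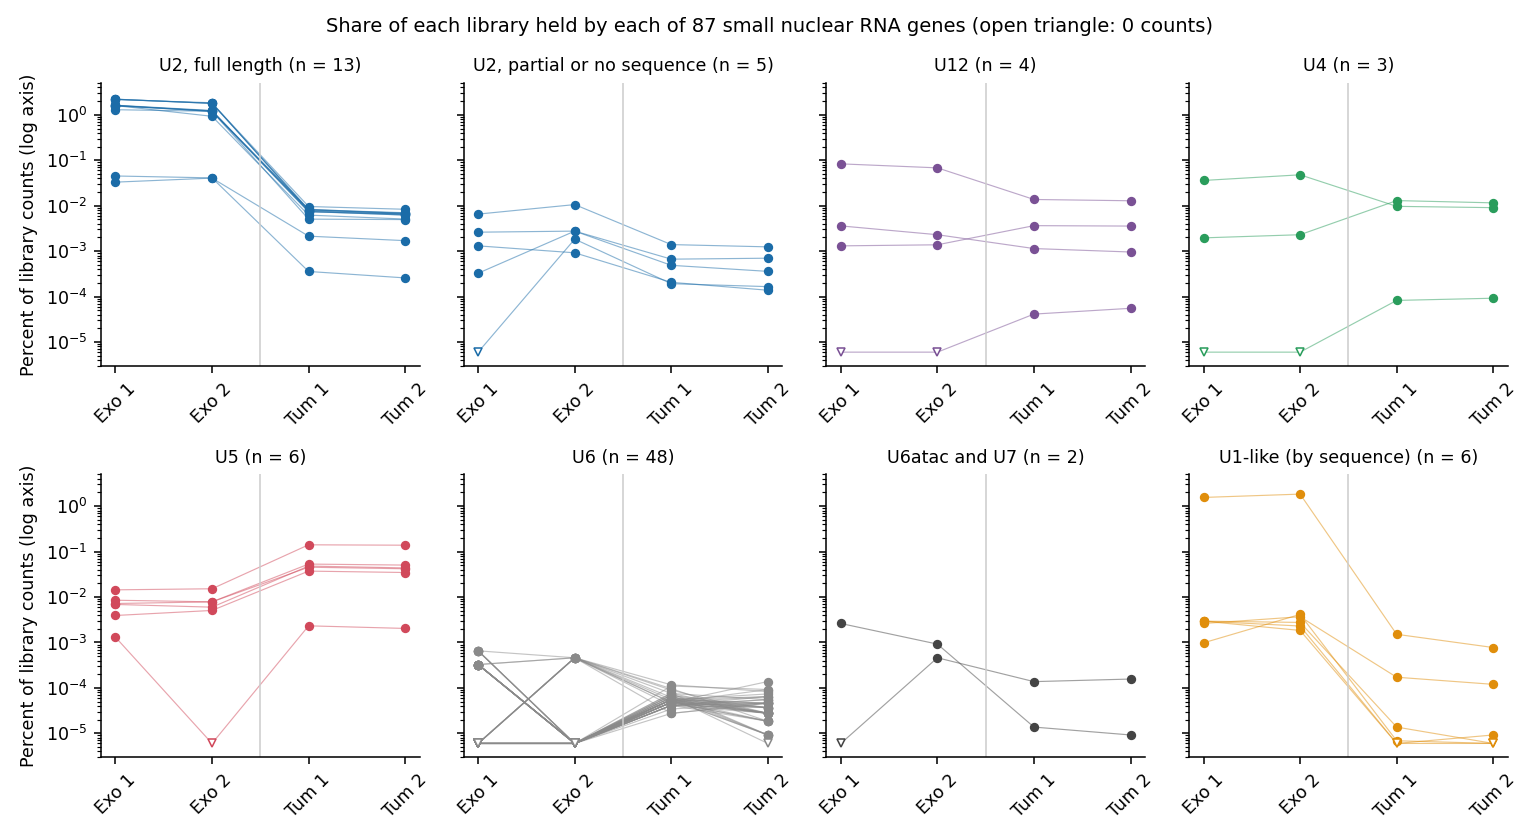
Percent of all gene counts held by each of the 87 members in each library on a log axis, by RNA type, with a line joining the values of each gene and open triangles for 0 counts. The 13 full-length U2 genes lie higher in both exosome libraries than in both tumour libraries, and the 6 U5 genes lie lower.

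Of the 87 members, 35 had enough counts to be tested. With edgeR (Benjamini-Hochberg adjusted p under 0.05 over all 1442 genes), 17 of these 35 were higher in exosomes, 11 were lower and 7 did not pass; over all genes tested, 16.0% were higher and 22.1% were lower (38.0% in either direction). Without the U1-like members the count was 13 higher, 11 lower and 7 not passing of 31, and the 13 were exactly the full-length U2 genes. Copies of the same RNA are near-identical, so these counts are not of separate observations. With libraries scaled to their totals, 25 of the 35 were higher and 8 lower, against 63.8% and 11.5% of all genes (75.3% in either direction). When at least 10 counts in 2 libraries were required, 15 of 34 tested members were higher and 8 lower, against 193 and 297 of all 1152 genes tested. The filter keeps a rare gene more easily where exosomes are high, since a single count there weighs so much, and the tested members therefore do not stand for the 87.

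U2 pairs with the branch point of the intron. All 13 full-length U2 genes were 191 bases long, and the reference copy Rnu2-10 is shown because every other copy is described by its differences from it. It lies at chr11:101658238-101658428 on the plus strand of GRCm38, outside other genes, and the capitals mark the Sm motif.
Rnu2-10: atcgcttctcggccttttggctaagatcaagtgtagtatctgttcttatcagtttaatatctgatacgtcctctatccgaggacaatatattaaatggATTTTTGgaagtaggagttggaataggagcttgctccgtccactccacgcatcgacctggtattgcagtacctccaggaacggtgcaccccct
The sequence is that of the GENCODE M21 transcript, with T for U.

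Together the 13 genes had 60478 and 33627 counts in exosomes and 12531 and 7930 in tumour. These were 19.8% and 15.5% of all gene counts in exosomes against 0.0862% and 0.0731% in tumour, with exact 95% intervals of 19.6% to 19.9% and 15.3% to 15.6% in exosomes. The exosome mean of 17.6% ± 3.04 (SD, n = 2) was 221 times the tumour mean of 0.0796% ± 0.00924 (SD, n = 2). Both exosome libraries were far above both tumour libraries. Summed over copies, U2 was higher in exosomes by 5.09 (SE 0.22, edgeR adjusted p = 2.7e-16), where 11.9% of the 1315 genes and families tested were higher and 23.2% lower (35.1% in either direction). Under library totals it was higher by 7.79, where 60.7% of them were higher and 11.5% lower (72.2% in either direction). The U2 sum kept its direction and its call in every alternative run.

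Copy by copy, the difference ranged from 1.45 to 5.41. The most counted copy was Gm25939, at chr1:72255008-72255198 in an intron of the long noncoding RNA gene D230017M19Rik, with 6730 and 3904 counts in exosomes and 1398 and 906 in tumour (5.02, SE 0.24, edgeR adjusted p = 1.1e-06). Gm24497, a neighbour in the same gene at chr1:72244213-72244403, had 6753 and 3871 counts against 1190 and 761 (5.26, SE 0.25, edgeR adjusted p = 1.0e-06). Rnu2-10 itself had 4912 and 2664 counts against 1077 and 679 (4.93, SE 0.27, edgeR adjusted p = 1.8e-06). In each of these the exosome libraries were higher although they held far fewer counts in all. These 3 stayed called without either tumour replicate, when far fewer genes were tested, at 2.60 to 3.10. The largest fitted difference was that of Gm23444, named after its values were seen, at chr11:83271498-83271688, with 6601 and 4006 counts against 1097 and 673 (5.41, SE 0.24, edgeR adjusted p = 6.0e-07).

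Copies that differ by a few bases did not keep 1 ratio to each other. With positions counted from 1 at the 5′ end of Rnu2-10, the copies Gm23971, Gm24950 and Gm23849 are identical to it, Gm23472 and Gm23444 carry G109C alone, Gm24497 carries G109C and C186A, and Gm25939 carries T69C, C78T and G109C. These 4 copies with G109C held 57.7% and 59.8% of the counts of these 8 in exosomes and 51.9% and 51.5% in tumour. Another copy with G109C, Gm25360, carries C78T, A95G and C154T as well and was left out of this set. No exact 95% interval of an exosome library met that of a tumour library, but these intervals cover counting error only. Across Rnu2-10 and the copies identical to it, the variance ran from 0.515 times the mean in exosome replicate 1 to 4.48 times in tumour replicate 1. Whether the share of the 4 differs between the groups was not tested. Gm25813, with C78T and G131C, stood apart, with 101 and 88 counts in exosomes and 311 and 185 in tumour (1.45, SE 0.16, edgeR adjusted p = 1.9e-04). Rnu2-10 fell from 4.93 to 2.77 and 2.60 without tumour replicate 1 or 2. The value of Gm25813 in those fits is not given, so whether its difference of 1.45 keeps its direction and call there is not known. Set against Rnu2-10 alone, Gm25813 held 2.01% and 3.20% of the counts of this pair in exosomes and 22.4% and 21.4% in tumour. Gm25202, the most diverged in its first bases (C3T, T7C and C8G among 8 substitutions), had 138 and 89 counts in exosomes and 52 and 28 in tumour (4.33, SE 0.24, edgeR adjusted p = 1.9e-06). Its share against Rnu2-10, 2.73% and 3.23% in exosomes and 4.61% and 3.96% in tumour, had intervals that overlapped except between exosome replicate 1 and tumour replicate 1. Gm25813 and Gm25202 were named after their values were seen.

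Identical copies show how far counts differ where the annotated sequence does not. Rnu2-10 and the copies identical to it, 4 in all, had 4867 to 4975 counts in exosome replicate 1. Their SD was 50.4 where the square root of the mean was 70.2. In tumour replicate 1 they had 1067 to 1217 counts, with an SD of 71.2 against a square root of 33.6. Their counts were close and not equal. How reads that fit several copies were counted is not given in the sources used here, and these counts do not settle it. Differences of this size between copies are therefore no measure of the copies themselves.

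The 4 partial U2 copies, which RefSeq lists as pseudogenes, were not higher with TMM scaling. All 4 lie in introns of protein-coding genes (Cep350, Ikzf3, Csmd3 and Clip1) and match U2 only within their first 57 to 106 bases. Gm23744, at chr1:155954574-155954722 in Cep350 on the strand opposite to it, is shown because it is identical to Rnu2-10 over its first 77 bases, given in capitals, and has no match after them.
Gm23744: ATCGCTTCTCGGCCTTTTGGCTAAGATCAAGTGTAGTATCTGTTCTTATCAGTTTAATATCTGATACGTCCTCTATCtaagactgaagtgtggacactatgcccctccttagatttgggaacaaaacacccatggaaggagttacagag
It had 20 and 23 counts in exosomes and 203 and 135 in tumour (−0.14, SE 0.23, edgeR adjusted p = 0.75; 2.66 and higher under library totals; −2.32 and −2.42, called lower, without tumour replicate 1 or 2). Summed, the 4 partial copies had 33 and 37 counts in exosomes and 401 and 265 in tumour. Gm25106, in Ikzf3, had 1 and 6 counts against 97 and 76 and was lower (−1.79, SE 0.55, edgeR adjusted p = 0.037), a call that was lost when exosome replicate 1 was left out (−0.86, adjusted p = 0.25) or at least 10 counts in 2 libraries were required (−1.35, adjusted p = 0.076) and a direction that turned under library totals (0.98, not passing). Gm25007 (8 and 6 counts against 71 and 39) and Gm24840 (4 and 2 against 30 and 15) did not pass with TMM scaling and were higher under library totals. Gm24840 reached the filter only with its exosome counts, so its values and calls are a description. The difference between the full-length and the partial copies was not tested as such. RF00004, on the unplaced scaffold GL456216.1, had 0 and 4 counts against 28 and 18 (−0.68, SE 0.88, edgeR adjusted p = 0.65). Under library totals RF00004 was at 2.08. It too reached the filter only with its exosome counts, so these values are a description.

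U12, the branch-point RNA of the minor spliceosome, takes the place of U2 there, and its counts were not called higher with TMM scaling. Rnu12 lies at chr15:83149644-83149794 on the plus strand, outside other genes, and is shown with the Sm motif in capitals.
Rnu12: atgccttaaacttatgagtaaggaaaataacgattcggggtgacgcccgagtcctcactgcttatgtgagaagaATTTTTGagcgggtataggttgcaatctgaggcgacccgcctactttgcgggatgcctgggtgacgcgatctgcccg
It had 255 and 148 counts in exosomes and 1996 and 1395 in tumour. The difference did not pass (−0.26, SE 0.19, edgeR adjusted p = 0.37) and turned to 2.52 under library totals, where it passed. Its call rests on the settings, since it was called lower without exosome replicate 1 (−0.53, adjusted p = 0.010) and without tumour replicate 1 or 2 (−2.49 and −2.52, adjusted p = 5.6e-04 and 3.2e-04).

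Gm23502, at chr14:21812711-21812855, had 4 and 3 counts in exosomes and 530 and 387 in tumour (−4.20, SE 0.28, edgeR adjusted p = 6.8e-06), and was lower under library totals too (−1.43); without tumour replicate 1 or 2 it was −6.43 and −6.40. It held 1.54% and 1.99% of the counts of itself and Rnu12 in exosomes and 21.0% and 21.7% in tumour, with intervals of at most 5.70% in exosomes and at least 19.4% in tumour. It is also the only U12 copy among the 4 without the Sm motif. Gm24525, in an intron of Zfp804b and 6 substitutions from Rnu12, had 11 and 5 counts against 166 and 104 (−1.24, SE 0.33, edgeR adjusted p = 0.021; 1.53 and higher under library totals). Gm25703 had no count in exosomes and 6 in each tumour library, which lies under the floor of 3 counts per exosome library, so a difference was not detectable. Summed, the 4 copies had 270 and 156 counts against 2698 and 1892 (−0.55, SE 0.23, edgeR adjusted p = 0.068; 2.16 under library totals; lower at −0.90 without exosome replicate 1, adjusted p = 3.4e-05; 0.27 and 0.21, not called, without tumour replicate 1 or 2). They made up 0.0801% ± 0.0117 of exosome counts and 0.0180% ± 0.000787 of tumour counts (SD, n = 2 each).

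U4 chaperones U6 until the spliceosome is activated. The 2 full-length U4 genes lie within 936 bases of each other on chromosome 5, outside other genes, Gm24265 at chr5:115489459-115489599 and Gm24407 at chr5:115490254-115490394, both on the plus strand. They are printed together because they differ at only 2 positions, marked in capitals, and had unlike counts.
Gm24265: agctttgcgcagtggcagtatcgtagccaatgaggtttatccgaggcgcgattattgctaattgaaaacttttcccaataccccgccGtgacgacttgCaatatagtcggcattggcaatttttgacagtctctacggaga
Gm24407: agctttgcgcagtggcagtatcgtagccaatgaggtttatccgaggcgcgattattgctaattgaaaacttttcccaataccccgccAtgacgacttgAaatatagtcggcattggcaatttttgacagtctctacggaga
Counted from 1 at the 5′ end of Gm24265, the substitutions in Gm24407 are G88A and C99A.

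Gm24265 had 6 and 5 counts in exosomes and 1887 and 1255 in tumour (−5.32, SE 0.22, edgeR adjusted p = 4.3e-07; −2.54 and lower under library totals). Gm24407 had 110 and 104 counts in exosomes and 1409 and 984 in tumour (−0.65, SE 0.14, edgeR adjusted p = 0.0060), which turned to 2.15 and higher under library totals and was not called when at least 10 counts in 2 libraries were required (−0.21, adjusted p = 0.31); without tumour replicate 1 or 2 it was −2.88 and −2.91. In tumour Gm24265 was the higher of the pair, and in exosomes it was nearly missing. Gm24407 held 94.8% (exact 95% interval 89.1% to 98.1%) and 95.4% (89.6% to 98.5%) of the pair's counts in exosomes, against 42.7% (41.1% to 44.5%) and 43.9% (41.9% to 46.0%) in tumour. This share is taken within a library and does not depend on the scaling. Reads that cover neither position fit both genes, and how they were assigned is not given in the sources used here.

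Summed over copies, U4 had 117 and 110 counts in exosomes and 3299 and 2241 in tumour. It was lower with TMM scaling (−1.70, SE 0.23, edgeR adjusted p = 1.1e-06) and higher under library totals (1.03, edgeR adjusted p = 8.7e-04), and without tumour replicate 1 or 2 it was no longer called (−0.85 and −0.95, adjusted p = 0.11 and 0.093), when far fewer genes were tested. The third U4 member, Gm22122, is 200 bases long and matches U4 in its first 61 bases. It had no count in exosomes and 12 and 10 in tumour, under what the exosome depth could show.

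**Figure D2:**
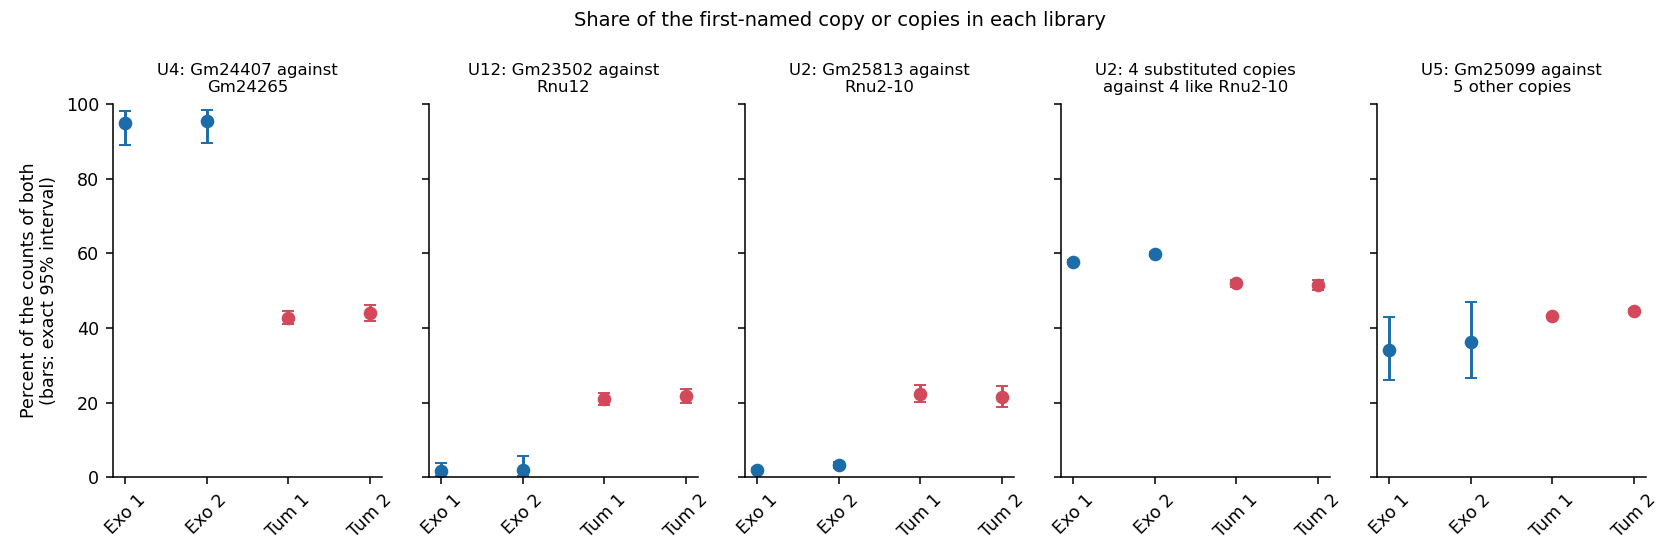
Percent of the counts of a pair or set of copies held by the first-named copy or copies in each library, with exact 95% binomial intervals (the 4 substituted U2 copies carry G109C). For U4, Gm24407 holds 94.8% and 95.4% in exosomes and 42.7% and 43.9% in tumour, and for U12, Gm23502 holds 1.54% and 1.99% in exosomes and 21.0% and 21.7% in tumour.

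U6, the catalytic RNA that base-pairs with U4 and then with U2, was the type with most members, each with few counts. Rnu6 had 0 and 1 counts in exosomes and 4 and 5 in tumour, and no U6 member exceeded 2 counts in an exosome library or 17 in a tumour library.

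Only 2 of the 48 U6 members could be tested, Gm24861 (2 and 1 counts against 13 and 3) and Gm22295 (1 and 1 against 7 and 7), and neither passed with TMM scaling. Under library totals Gm24861 was higher (3.16, edgeR adjusted p = 0.0099) and Gm22295 did not pass (2.75). Both genes reached the filter only through their exosome counts, so these values are a description. The most counted members were Gm24753 (1 and 0 counts against 16 and 10) and Gm24713 (0 and 1 against 17 and 9). In exosomes 17 of the 48 members had no count in either library, and the tumour share of each of these 17 was below what 3 counts in an exosome library would give. Summed over the 157 copies with a count, U6 had 53 and 15 counts in exosomes and 721 and 345 in tumour. The sum was lower with TMM scaling (−1.05, SE 0.34, edgeR adjusted p = 0.016) and higher under library totals (1.62, edgeR adjusted p = 2.9e-04). The call was lost in most alternatives, and without tumour replicate 1 the difference was 0.044 (adjusted p = 0.95). At these counts the direction of U6 could not be settled.

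U5 positions the exon ends for joining and was lower in exosomes at every copy, with TMM scaling and under library totals. The 6 members are 116 bases long. Gm25099, outside other genes, was the most counted copy, and Rnu5g lies in an intron of Parp16 on the strand opposite to it.

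Gm25099 had 44 and 33 counts in exosomes and 20496 and 14991 in tumour (−6.03, SE 0.18, edgeR adjusted p = 1.2e-07). Rnu5g had 22 and 17 counts in exosomes and 7723 and 5472 in tumour (−5.57, SE 0.18, edgeR adjusted p = 1.7e-07). The other 4 copies had 0 to 26 counts in an exosome library and 221 to 6975 in a tumour library, with differences from −5.80 to −4.27. All 6 of 6 were lower, against 22.1% of all genes, and all 6 were lower under library totals, against 11.5%. The 6 are near-identical copies of the same RNA, so they are not separate observations. Summed, U5 had 129 and 91 counts in exosomes and 47529 and 33733 in tumour (−5.64, SE 0.23, edgeR adjusted p = 1.2e-16; −2.92 under library totals). It made up 0.0420% ± 0.000208 of exosome counts and 0.319% ± 0.0112 of tumour counts (SD, n = 2 each), 7.58 times more in tumour. The U5 sum kept its direction and its call in every alternative run.

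Within U5, Gm25099 held 34.1% (exact 95% interval 26.0% to 43.0%) and 36.3% (26.4% to 47.0%) of the counts of the 6 in exosomes and 43.1% and 44.4% in tumour. The interval of exosome replicate 2 meets both tumour intervals, and that of exosome replicate 1 meets the interval of tumour replicate 1 (42.7% to 43.6%) and lies below that of tumour replicate 2, which starts at 43.9%.

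**Figure D3:**
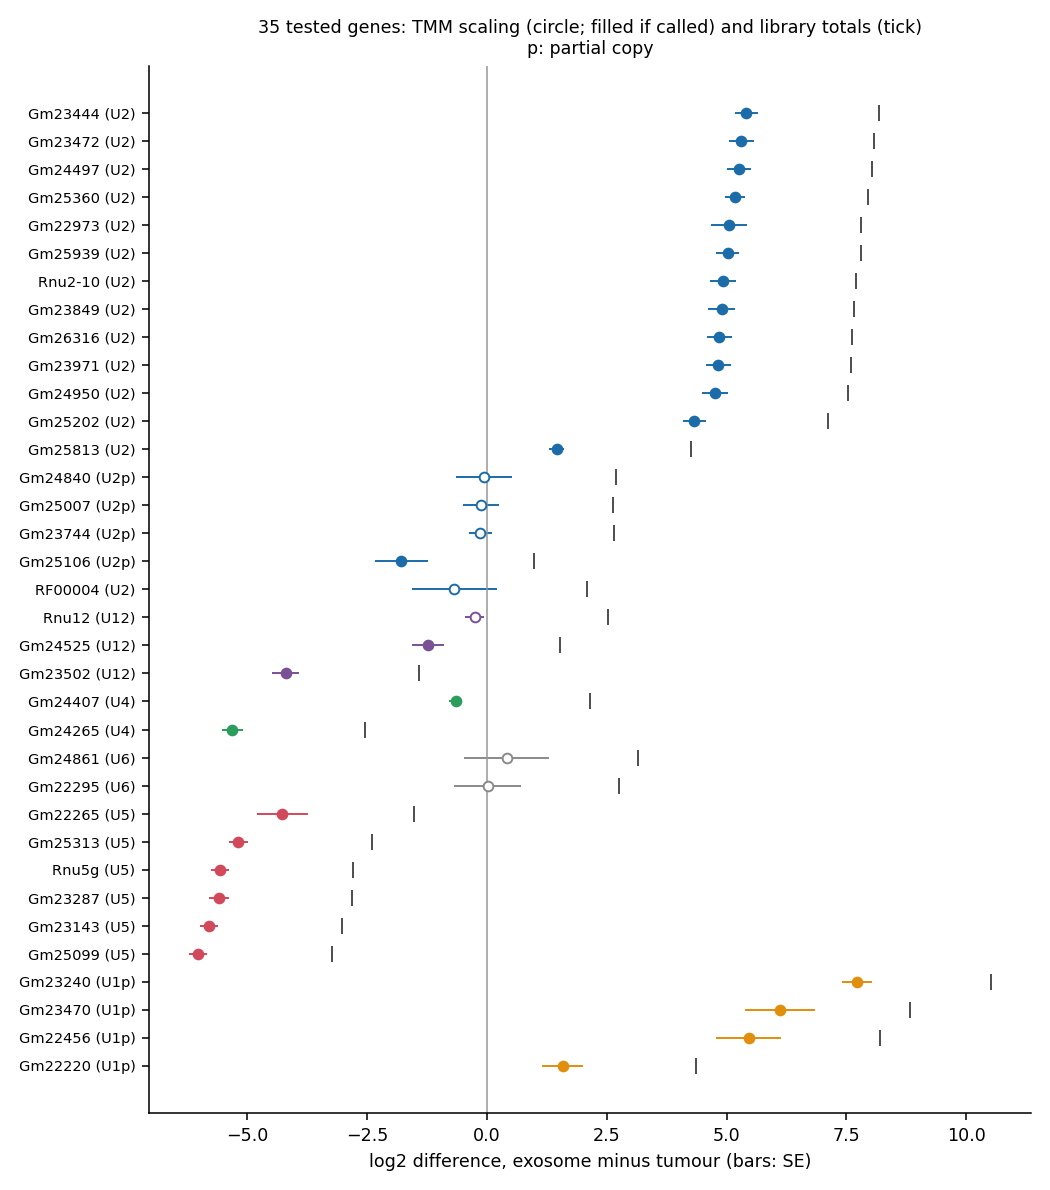
Log2 difference, exosomes minus tumour, of the 35 tested members with TMM scaling (circles with SE, filled where edgeR's adjusted p is under 0.05) and under library totals (ticks), ordered by RNA type. Full-length U2 lies between 1.45 and 5.41 and U5 between −6.03 and −4.27, and only U5, Gm24265 and Gm23502 stay below 0 under library totals.

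Members of the other types had few counts. Gm25541, the only U6atac member, at chr2:27539805-27539930, is the minor spliceosome's counterpart of U6. It had 0 and 1 counts in exosomes and 20 and 17 in tumour. Gm23763, a 60-base gene at chr1:136990211-136990270 whose first 46 bases match U7, the RNA that guides histone messenger end formation and is no part of the spliceosome, had 8 and 2 counts in exosomes and 2 and 1 in tumour. Neither was tested. All U11-type genes together had 4 and 2 counts in exosomes and 1 and 1 in tumour.

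Of the 6 U1-like members, 4 were tested, and 3 of these (Gm22456, Gm23470 and Gm22220) passed the filter only through the exosome libraries where they were high, so their calls are a description. U1 recognises the start of the intron, and Gm23240, at chr1:48462173-48462293 on the minus strand outside other genes, is shown because it carried nearly all of their counts. The capitals mark bases 2 to 71, which are identical to the U1 gene Rnu1a1 and followed by sequence with no match.
Gm23240: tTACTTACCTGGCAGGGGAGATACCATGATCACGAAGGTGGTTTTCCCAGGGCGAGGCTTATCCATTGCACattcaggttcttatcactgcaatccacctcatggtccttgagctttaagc
It had 4750 and 3994 counts in exosomes and 220 and 84 in tumour (7.72, SE 0.32, edgeR adjusted p = 4.3e-07; 5.12 without tumour replicate 2). Reads from the matching part also fit genuine U1 genes and cannot be told apart from theirs. Gm22456 (9 and 6 counts against 2 and 0; 5.46) and Gm23470 (9 and 5 against 0 and 1; 6.12) had few counts each. Gm22220 (8 and 8 against 25 and 13) had a difference of 1.58 (SE 0.42, edgeR adjusted p = 0.020), with its direction turned when either tumour replicate was left out (−0.38 and −0.83). Gm25514 had 9 and 4 counts in exosomes and none in tumour, and it reached the minimum of 10 counts only through exosomes, so no fold is given. Gm22126 had 3 and 9 counts against 1 and 0.

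Ratios between RNAs of the same library do not depend on scaling between libraries. There were 469 and 370 U2 counts for each U5 count in exosomes, and 0.264 and 0.235 in tumour. On the log2 scale this ratio was 10.71 higher in exosomes (SD 0.27, n = 2 in each group), the widest of the 9 ratios computed. The U2 to U12 ratio was 224 and 216 in exosomes and 4.64 and 4.19 in tumour, and the U2 to U4 ratio was 517 and 306 against 3.80 and 3.54. In each of these the exosome and tumour libraries did not overlap.

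Of the 4 ratios without U2, 2 separated the groups. U12 to U5 was 2.09 and 1.71 in exosomes and 0.0568 and 0.0561 in tumour, and U4 to U5 was 0.907 and 1.21 against 0.0694 and 0.0664. U4 to U6, which pair with each other in the particle, was 2.21 and 7.33 in exosomes and 4.58 and 6.50 in tumour, and U12 to U6 was 5.09 and 10.4 against 3.74 and 5.48. The groups overlapped in both. Against the 34 genes of U1 length with at least 10 counts, U2 was lower in exosomes than in tumour, at 0.721 and 0.464 counts for each U1 count against 1.75 and 2.24.

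**Figure D4:**
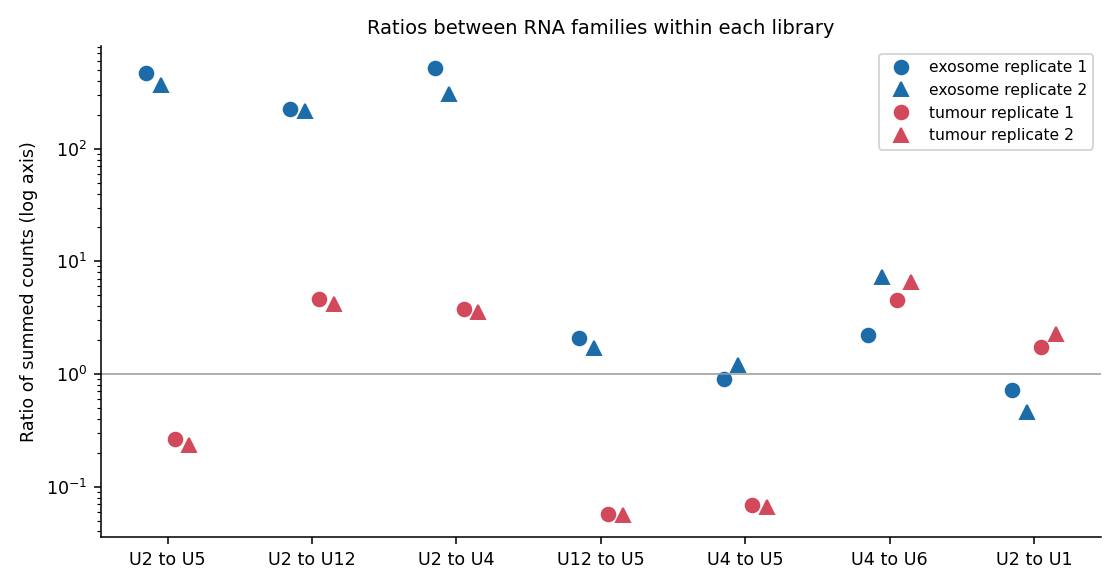
Ratio of summed counts between RNA families within each library on a log axis, with exosome libraries in blue and tumour libraries in red. U2 to U5 is 469 and 370 in exosomes and 0.264 and 0.235 in tumour, while U4 to U6 overlaps between the groups.

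The composition was taken over the full-length U2, U4, U5, U6 and U12 members. In the ratios above these types were summed over all grouped copies with a count. U2 made up 99.0% ± 0.132 (SD, n = 2) of the counts of these full-length members in exosomes and 18.1% ± 1.14 in tumour. U5 made up 0.240% ± 0.0398 in exosomes and 72.4% ± 1.28 in tumour. U4 and U12 took 4.91% ± 0.0653 and 4.09% ± 0.0376 in tumour, and 0.255% ± 0.0923 and 0.451% ± 0.0116 in exosomes. Per length, on the deposited FPKM scale, tumour levels summed over full-length members ran from U5 (28171 and 26800) through U2 (4511 and 3827), U4 (1607 and 1464) and U12 (1239 and 1165) to U6 (249 and 171). In exosomes the order was U2 (1035606 and 810564), U12 (5852 and 4760), and then U5 (3637 and 3612) and U4 (2691 and 3559), which were close in replicate 2, and U6 (857 and 431).

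Members of a type often lie in arrays. Of the full-length U2 genes, 5 lie within 53.6 kb on chromosome 11 and 4 within 29.0 kb on chromosome 1. Of the U5 genes, 3 lie within 21.0 kb on chromosome 4 and 2 within 5.27 kb on chromosome 9. Over all 87 members, 55 were outside other annotated genes and 32 in introns.

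The Sm motif was searched on the RNA strand as ATTTNTG or ATTTTTTG, patterns that do not match at the same start. It was found in 13 of 13 full-length U2, 2 of 2 full-length U4, 6 of 6 U5 and 3 of 4 U12 members, and in 0 of 48 U6 members and not in the U6atac member. Among all 1383 annotated snRNA genes with a sequence, 300 (21.7%) held it. The motif was thus present both in U2, which was higher in exosomes, and in U5, which was lower.

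Proteins of the same particles were mostly too rare in these libraries to test. Of 112 symbols in 9 lists of spliceosome and snRNA assembly proteins, 109 were measured and 9 could be tested. With TMM scaling 0 were higher, 1 was lower and 8 did not pass (edgeR, all-gene shares as above). Under library totals 6 were higher and 1 lower. Apart from Snrpb and Prpf8, they reached the filter only with their exosome counts, where 1 count is worth 3.27 or 4.60 CPM. The differences and calls of these genes, and the medians that include them, are therefore a description. The lower gene was Snrpb, which encodes the Sm protein B, with 16 and 14 counts in exosomes and 146964 and 114981 in tumour. Its difference was −10.27 (SE 0.24, edgeR adjusted p = 7.8e-08), and its tumour counts were the highest of the 9 tested. It was the only 1 of 8 Sm protein genes that could be tested, so it does not stand for them. Counts are per gene, and which part of Snrpb its reads came from was not tested. Of the U2 particle, 4 of 14 proteins were tested and none passed, with a median of 0.08; Sf3b1, which holds the branch point, had 3 and 2 counts against 26 and 21 (−0.41), Sf3b2 had 4 and 1 against 17 and 8 (0.51) and Sf3b3 had 2 and 2 against 18 and 14 (−0.17). Of the U5 particle, 3 of 8 were tested and none passed, with a median of −0.62; Prpf8, its central scaffold, had 1 and 1 counts against 30 and 26 (−1.96, SE 0.70, edgeR adjusted p = 0.064), the helicase Snrnp200 had 4 and 1 against 18 and 16 (0.05) and Eftud2 had 1 and 1 against 13 and 9 (−0.62). Xpo1, which exports newly made snRNAs, had 6 and 5 counts against 8 and 14 (1.78, SE 0.63, edgeR adjusted p = 0.063). No LSm, U1, tri-snRNP, minor spliceosome or U7 particle protein had enough counts.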

How the data were processed

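Total RNA was ligated to adaptors, amplified and gel-purified, per the labels' protocols. The deposited counts are whole reads per gene with no normalization, and the FPKM deposited by the authors equal, for snRNA genes, count per length and library total within 0.0806%. The submitters' processing notes name TopHat2 2.0.9, Cufflinks 2.1.1, Cuffdiff and GRCm38.p4; for the counting tool, strand and treatment of multiple matches, the sources used here give nothing. Counts were fitted over all genes with edgeR 4.0.16 (R 4.3.3, TMM, filterByExpr, minimum 1.79 CPM in 2 libraries, quasi-likelihood test, two-sided, Benjamini-Hochberg at 0.05). The fit was tried on simulated libraries of equal depth, which does not cover the gap in depth between these groups. The SE is the absolute difference over the square root of F. Copies were summed where blastn 2.17.0 found at least 90% identity over 80% of the longer gene. The lists, the members and their rule were chosen with earlier results of these data known, and the typing rule, the U1-like set and the copy pairs after values were seen. Named genes were those with Rnu symbols, the 2 most counted of each type and up to 3 tested per list; others were named after their values were seen. Alternatives were DESeq2 1.42.0, other scalings and filters, the replicate number as a block, leaving out each library in turn, other copy groupings and other denominators. Intervals (Clopper-Pearson) and floors (3 counts per library) cover counting error only, since reads carry no molecular identifiers. The sequences of some U5 and U6 members are not reported here.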

Additional observations from a re-analysis of the deposited data

How the results depend on the processing

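Under library totals the U4, U6 and U12 sums turned to 1.03, 1.62 and 2.16, and Rnu12, Gm24407, Gm23744, Gm25106, Gm25007, Gm24840 and RF00004 to 2.52, 2.15, 2.66, 0.98, 2.64, 2.69 and 2.08. With at least 10 counts in 2 libraries, Rnu12, Gm23744, Gm25007 and Gm24840 turned to 0.19, 0.31, 0.31 and 0.37, and the U6 sum was −0.62 and not called. The U6 sum also missed the threshold with median-of-ratios scaling (−1.08) and DESeq2 (−1.10), and with no filter the U12 sum (−1.76), Rnu12 (−1.44) and Gm23744 (−1.32) passed as lower. With the replicate number as a block the U6 sum was −1.18 (adjusted p = 0.052), and no other sum changed its call. The numbers only name replicates, since same-numbered libraries did not deviate together (correlation −0.0198). Leaving out each library in turn, the sums ranged from −1.78 to −0.85 for U4, from −2.12 to 0.044 for U6 and from −0.90 to 0.27 for U12. The U12 sum passed without exosome replicate 1. Single genes ranged from −2.52 to 0.021 (Rnu12), −2.91 to −0.53 (Gm24407), −0.83 to 1.75 (Gm22220), −2.42 to 0.12 (Gm23744), −0.48 to 0.27 (Gm24840) and −7.05 to 0.47 (RF00004), and the log2 U4 to U6 ratio from −1.30 to 0.43. The causes were not tested beyond this: leaving out a tumour library left 394 or 397 genes to test with a median difference of −1.32 or −1.50, and 288 or 291 genes and families with a median of 0.36 or 0.24. As a share of all snRNA counts the members held 39.2% in exosomes and 91.3% in tumour. Exosome depth limits every member below about 3 counts per library.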
